A study of Mus musculus with 13 samples.

Results

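The genes described here encode the vacuolar proton pump (V-ATPase) and proteins of the lysosomal membrane, 40 genes in all and given by a list of names. The list sets no threshold on a level or a difference, but it was drawn up with earlier results of these data known. Each of the 40 symbols had a row among the 35013 gene symbols of the estimated-count table, and each was among the 16468 genes tested. There were 19 V-ATPase genes (8 of the V1 sector, 9 of the V0 sector and 2 accessory proteins) and 21 genes of other lysosomal membrane proteins.

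The V-ATPase couples ATP hydrolysis in its cytosolic V1 sector to the rotation of a proteolipid ring in its membrane V0 sector, which moves protons into endosomes and lysosomes. Lysosomal membrane proteins shield that membrane, carry digestion products and ions across it, and tether signalling complexes to it. In the kidney, the proximal tubule depends on acidified endosomes to recover filtered protein, whereas intercalated cells of the collecting duct place V-ATPase at the cell surface to secrete acid.

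Thiol-tagged, poly-A selected kidney RNA was sequenced from female mice in 13 libraries, of which 4 were labelled Spns1 KO, 5 WT and 4 FeO. All mice carried the tamoxifen-inducible Megalin3'Cre-Ert driver, which is expressed from the megalin locus of the proximal tubule. They also carried 1 allele of Uprt flox/+, whose product adds 4-thiouracil to new RNA. By the study's methods, the mice were given tamoxifen in parallel and were treated with 4-thiouracil to tag new RNA. Spns1 KO mice were Spns1 flox/flox, whereas WT and FeO mice carried a single floxed allele by the study's methods although their labels read Spns1 WT, and FeO mice had received 12 mg of iron on each of 3 days, as injected iron sucrose, and were euthanized 1 week later. Ages of the mice, and whether each library came from its own mouse, were not given in the sources used here, so p-values measure the spread between libraries, which may be partly technical.

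Total estimated counts were 31809135 to 71296474 per library in Spns1 KO, 23068023 to 37362311 in WT and 25986133 to 29981814 in FeO. The level of Spns1 itself overlapped between Spns1 KO and WT libraries. In CPM (counts scaled to library size) it was 57.2, 61.4, 57.6, 39.2 and 62.9 in WT 1 to 5. In Spns1 KO 1 to 4 it was 39.0, 44.5, 36.6 and 59.0. Spns1 KO 4 lay above WT 1, 3 and 4, and WT 4 lay below Spns1 KO 2 and 4. The log2 fold change of Spns1 was -0.31 (SE 0.18, adjusted p = 0.226, edgeR, Benjamini-Hochberg over all genes). The group is named by its label throughout. With trends of transcript length and GC content taken out of every library, Spns1 was called lower in Spns1 KO (-0.55, adjusted p = 0.0230, edgeR). The captured RNA was not of the proximal tubule alone, since all 13 intercalated cell, all 7 principal cell and all 13 macrophage markers had counts. The summed level of 13 proximal tubule markers was 9080 to 10794 CPM in Spns1 KO, 4479 to 6300 in WT and 2538 to 7100 in FeO libraries. The library FeO 1 stood apart, with the lowest proximal tubule sum (2538) and the highest sums of intercalated cell (1242) and principal cell (1304) markers. In bulk RNA, more cells of a type cannot be told apart from more RNA per cell.

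Many lysosomal genes carry in their promoters the palindrome CACGTG in a longer form (TCACGTG, or TCACGTGA), the element bound by the TFEB and TFE3 family of factors. The window from 250 bases before to 50 bases after the RefSeq start (GRCm38.p6) was searched on both strands, and it was given for 32 of the 40 genes. TCACGTG was found in 9 of these 32 (28.1%), against 4.29% of the windows of 27025 genes, and TCACGTGA, which contains it, in 7 (21.9%), against 1.12%. CACGTG, contained in both, was found in the same 9 genes, against 8.09% of all windows. A match is a description of the sequence and not of a bound site. A site of 20 bases is shown for each of the 9 genes, with 2 for Lamp1 because its window held 4, written 5′ to 3′ on the strand of the gene with the match in capitals, so that a match on the other strand reads CACGTGA. No window was given for Atp6v1b2, Atp6v1c1, Atp6v1g1, Atp6v1h, Atp6v0a2, Laptm4b, Tpcn1 and Sort1.
Atp6v1a, chr16:44139378-44139397, minus strand: tttaaaTCACGTGAtaggct
Atp6v0b, chr4:117887353-117887372, minus strand: cgggggTCACGTGgggtcgg
Atp6v0d1, chr8:105566055-105566074, minus strand: ctgcggTCACGTGAgacgcg
Atp6v0e, chr17:26676392-26676411, plus strand: cgccgaTCACGTGAgcctct
Lamp1, chr8:13159093-13159112, plus strand: aagataTCACGTGgtccagc
Lamp1, chr8:13159126-13159145, plus strand: cgactggCACGTGAccacat
Mcoln1, chr8:3500467-3500486, plus strand: ccccgcTCACGTGAccgcgg
Clcn7, chr17:25133391-25133410, plus strand: gatagaTCACGTGAgacctg
Slc36a1, chr11:55204330-55204349, plus strand: ccagcaTCACGTGAcagggc
Cln3, chr7:126583345-126583364, minus strand: gtactgTCACGTGAccccca

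To learn how the proton pump and the lysosomal membrane responded to each model, every gene was compared with WT. A gene was called higher or lower at an adjusted p under 0.05 and a log2 fold change beyond 0.5. Of the 40 genes, 15 were higher in Spns1 KO, where 14.0% of all genes tested were called higher, and none was lower, where 7.55% of all genes were called lower. In FeO, 17 were higher and none was lower, against 22.4% and 19.7% of all genes tested. At an unadjusted p under 0.05, edgeR placed 19 higher and 0 lower in Spns1 KO, and 20 higher and 2 lower in FeO. The share of all genes at that unadjusted limit is not given here. DESeq2 and limma-voom also called 0 lower in either model. Of 16459 genes, DESeq2 called 1608 lower in Spns1 KO and 3411 in FeO. Of 16468, limma-voom called 1529 and 3492 lower. The median log2 fold change of the 40 genes was 0.41 in Spns1 KO, where that of all genes tested was -0.045, and 0.43 in FeO, where it was -0.011. Both comparisons used the same WT libraries, so their values are set side by side and not related to each other.

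By group, 8 of the 19 V-ATPase genes rose in Spns1 KO (42.1%, against 14.0% of all genes tested) and 12 in FeO (63.2%, against 22.4%). Of the 21 other membrane genes 7 rose in Spns1 KO (33.3%), and 5 did in FeO (23.8%), which is near the share of all genes. With the length and GC trend removed, only 3 of the 19 V-ATPase genes rose in Spns1 KO and 8 in FeO. Of the 21 other membrane genes, 6 and 5 then rose. In that setting 1790 of all 16468 genes tested rose in Spns1 KO and 3480 in FeO. The genes called higher in both were Atp6v1e1, Atp6v1f, Atp6v1g1, Atp6v0b, Atp6v0c, Atp6v0e2, Atp6ap1, Cd63 and Laptm4a. The 6 called in Spns1 KO alone were Atp6ap2, Lamp1, Lamp2, Tpcn1, Slc17a5 and Slc36a1. The 8 called in FeO alone were Atp6v1d, Atp6v1h, Tcirg1, Atp6v0d1, Atp6v0e, Laptm4b, Tmem192 and Cln3, and 17 genes were called in neither.

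**Figure D1:**
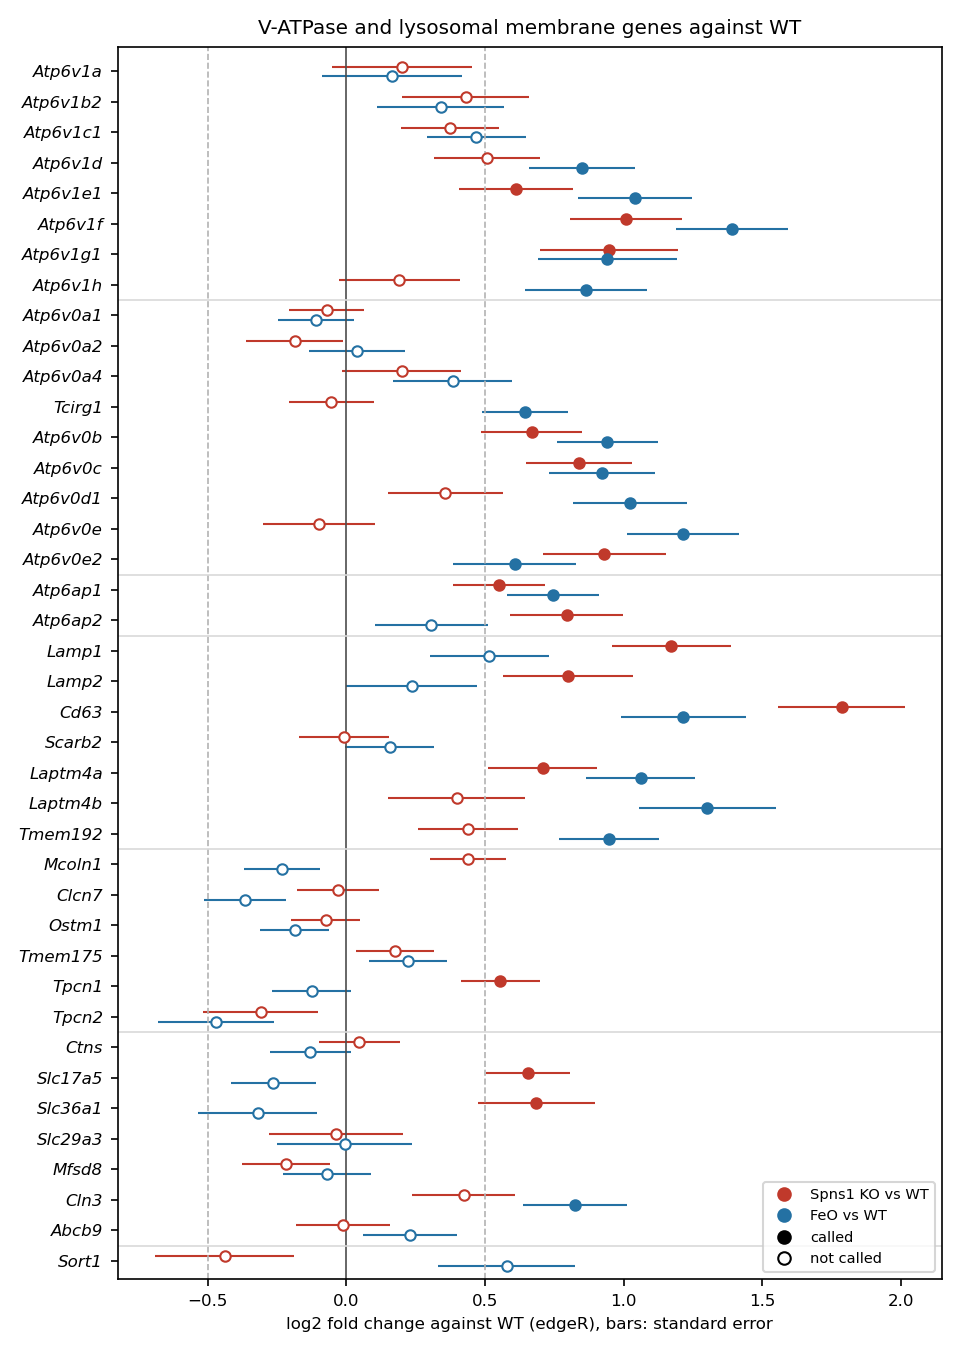
Log2 fold change against WT of each of the 40 genes (horizontal axis, bars give the standard error) in Spns1 KO (red) and FeO (blue), with genes grouped by role from the V1 sector at the top to Sort1 at the bottom. Filled points were called at an adjusted p under 0.05 and beyond the dashed lines at 0.5 on either side: 15 points are filled in red and 17 in blue, and all of them lie to the right.

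The V1 sector holds the ATP-splitting head and the stalks of the pump. In Spns1 KO 3 of its 8 genes rose (37.5%, against 14.0% of all genes tested) and in FeO 5 (62.5%, against 22.4%). Once the length and GC trend was removed, 1 rose in Spns1 KO and 4 in FeO, against 1790 and 3480 of all 16468 genes tested. The group is small for such a comparison. Atp6v1f, of the central stalk, was 28.6, 25.6, 18.8, 20.5 and 29.96 CPM in WT 1 to 5, 46.4, 55.9, 61.3 and 35.2 in the libraries labelled Spns1 KO 1 to 4, and in FeO 1 to 4 it was 73.6, 44.2, 73.05 and 68.1. Every Spns1 KO and every FeO library lay above every WT library. Its log2 fold change reached 1.01 (SE 0.20) with the Spns1 KO label and 1.39 (SE 0.20) with iron, the latter the largest of the 40 genes in FeO. With the length and GC trend removed these values were 0.47 (adjusted p = 0.0510, edgeR, no longer called) and 0.85. The Atp6v1f transcript shares 17.1% of its 31-base words with other genes, mainly AC169506.3.

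Atp6v1e1, of the peripheral stalk that holds the head in place, was 96.7, 90.98, 80.6, 91.1 and 96.3 CPM in WT 1 to 5, 156, 148, 169.8 and 83.7 in the libraries labelled Spns1 KO 1 to 4, and in FeO 1 to 4 it was 231, 131, 217 and 171. Atp6v1g1, its partner in that stalk, was 90.8, 80.2, 55.7, 49.95 and 62.6 CPM in WT 1 to 5, 148, 122, 180.4 and 73.3 in the libraries labelled Spns1 KO 1 to 4, and in FeO 1 to 4 it was 121, 107, 181 and 111. In both genes the FeO libraries lay above every WT library, whereas the library labelled Spns1 KO 4 fell inside the WT range. Atp6v1e1 rose by 0.61 on the log2 scale in Spns1 KO (adjusted p = 0.0412, edgeR, Benjamini-Hochberg over all genes) and by 1.04 in FeO. The call of Atp6v1e1 in Spns1 KO was lost when any 1 of 8 libraries was left out, namely Spns1 KO 1, 2 and 3 and each of the 5 WT libraries. Atp6v1g1 rose by 0.95 and 0.94, and its call in Spns1 KO was lost without Spns1 KO 3. The Atp6v1g1 transcript shares 24% of its 31-base words with other genes, mainly Gm13453.

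Atp6v1h, a regulatory subunit of the V1 sector, was 86.7, 85.9, 79.3, 101 and 111 CPM in WT 1 to 5, 110.4, 106, 139 and 67.6 in the libraries labelled Spns1 KO 1 to 4, and in FeO 1 to 4 it was 226, 118, 194 and 136. The FeO libraries were the higher ones, each above every WT library, and the Spns1 KO libraries spanned the WT range. Its log2 fold change was 0.86 (SE 0.22) in FeO and 0.19 (SE 0.22) in Spns1 KO. Atp6v1d, of the central stalk, rose by 0.85 in FeO, and its log2 fold change of 0.51 in Spns1 KO had an adjusted p of 0.0663 (edgeR, Benjamini-Hochberg over all genes). The catalytic A subunit gene Atp6v1a was called in neither model (0.20 in Spns1 KO and 0.16 in FeO), nor was Atp6v1b2, its B subunit partner (0.43 and 0.34), nor Atp6v1c1, of the peripheral stalks (0.37 and 0.47).

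The V0 sector holds the proteolipid ring and the a subunit, which forms the proton path. In Spns1 KO 3 of its 9 genes rose (33.3%, against 14.0% of all genes tested) and in FeO 6 (66.7%, against 22.4%). Once the length and GC trend was removed, 1 rose in Spns1 KO and 3 in FeO, against 1790 and 3480 of all 16468 genes tested. This group too is small. Atp6v0c, the main proteolipid of the ring and the most highly expressed of the 40 genes in WT per kilobase of transcript (137 CPM per kilobase, SD 24.3, n = 5), was 200.3, 182, 138, 133 and 158 CPM in WT 1 to 5, 319.9, 288, 348 and 205 in the libraries labelled Spns1 KO 1 to 4, and in FeO 1 to 4 it was 365, 259, 345 and 261. Atp6v0b, the other ring proteolipid, was 82.7, 79.8, 60.1, 51.96 and 74.97 CPM in WT 1 to 5, 114, 114, 132 and 84.1 in the libraries labelled Spns1 KO 1 to 4, and in FeO 1 to 4 it was 167, 109, 139.8 and 121. For both genes, all libraries of each model lay above all WT libraries. The Atp6v0c transcript shares 35.2% of its 31-base words with other genes, mainly Atp6v0c-ps2, so its count and its rank are uncertain to that extent. Atp6v0c rose by 0.84 (SE 0.19) in Spns1 KO and by 0.92 (SE 0.19) in FeO, and Atp6v0b by 0.67, a call lost without Spns1 KO 3, and 0.94.

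Atp6v0d1, which joins the ring to the central stalk, was 61.99, 55.9, 50.2, 56.4 and 66.6 CPM in WT 1 to 5, 85.9, 70.3, 96.2 and 45.8 in the libraries labelled Spns1 KO 1 to 4, and in FeO 1 to 4 it was 150.2, 102, 133 and 87.5. Its FeO libraries were above every WT library, and its Spns1 KO libraries were not. The log2 fold change was 1.02 (SE 0.21) in FeO and 0.36 (SE 0.21) in Spns1 KO.

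The small e subunit is encoded by Atp6v0e and Atp6v0e2, and the models differed directly in Atp6v0e (-1.31 on the log2 scale for Spns1 KO against FeO, adjusted p = 0.00324, edgeR, Benjamini-Hochberg over all genes) but without a call in Atp6v0e2 (0.32, SE 0.24, adjusted p = 0.354). Atp6v0e was 36.95, 36.9, 34.8, 34.8 and 53.2 CPM in WT 1 to 5, 35.5, 34.9, 47.3 and 29.3 in the libraries labelled Spns1 KO 1 to 4, and in FeO 1 to 4 it was 127, 63.8, 91.8 and 82.3. Atp6v0e2 was 13.5, 12.8, 10.1, 11.2 and 11.7 CPM in WT 1 to 5, 25.9, 21.7, 28.8 and 14.2 in the libraries labelled Spns1 KO 1 to 4, and in FeO 1 to 4 it was 15.2, 17.9, 26.2 and 12.9. Atp6v0e was higher than every WT library in each FeO library and within or below the WT range in each Spns1 KO library, whereas Atp6v0e2 was higher than every WT library in each Spns1 KO library. Atp6v0e rose by 1.21 (SE 0.20) in FeO, and its log2 fold change was -0.098 (SE 0.20) in Spns1 KO. Atp6v0e2 rose by 0.93 (SE 0.22) in Spns1 KO and by 0.61 (SE 0.22) in FeO, where the call was lost without FeO 3 and without WT 2, 3, 4 or 5. Per kilobase of transcript, Atp6v0e made up 63.5 to 74.2% of the summed level of the pair in WT, 46.6 to 56.8% in Spns1 KO and 69.0 to 84.1% in FeO, so that the Spns1 KO shares lay below the others in every library.

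**Figure D2:**
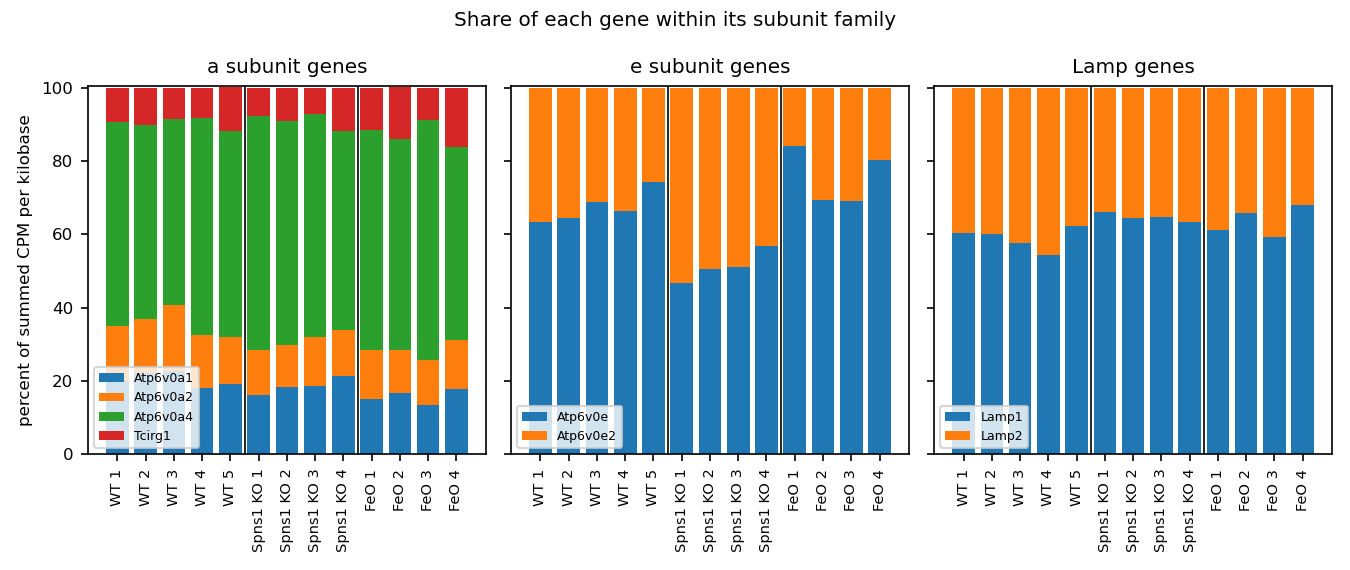
Share of each gene in the summed level of its family (vertical axis, percent of CPM per kilobase of the longest transcript) in each of the 13 libraries (horizontal axis), for the a subunit genes, the e subunit genes and the Lamp genes. Atp6v0e held 46.6 to 56.8% of the e subunit level in the 4 libraries labelled Spns1 KO and at least 63.5% in each other library.

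Of the a subunit genes, Atp6v0a4 is known from intercalated cells and the proximal tubule, and Tcirg1 (the a3 subunit) from osteoclasts and lysosomes. Atp6v0a4 was 264, 258, 238, 379.8 and 288 CPM in WT 1 to 5, 387, 343, 353 and 229 in the libraries labelled Spns1 KO 1 to 4, and in FeO 1 to 4 it was 465, 339, 437 and 248. Tcirg1 was 40.6, 45.3, 35.9, 47.8 and 55.6 CPM in WT 1 to 5, 43.05, 45.9, 38.4 and 46.2 in the libraries labelled Spns1 KO 1 to 4, and in FeO 1 to 4 it was 81.2, 76.7, 53.8 and 69.8. Tcirg1 was higher in 3 of the 4 FeO libraries than in any WT library, and its Spns1 KO libraries lay within the WT range. It rose by 0.64 (SE 0.15) in FeO and its log2 fold change was -0.054 (SE 0.15) in Spns1 KO, where the sign turned under some settings. Atp6v0a4 overlapped between the groups, with log2 fold changes of 0.20 (SE 0.22) and 0.38 (SE 0.21).

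Atp6v0a1, the broadly expressed a1 subunit, was 115, 131, 128, 140.4 and 119 CPM in WT 1 to 5, 119, 123, 131 and 109 in the libraries labelled Spns1 KO 1 to 4, and in FeO 1 to 4 it was 142, 119, 107 and 101. Atp6v0a2, which serves the Golgi and early endosomes, was 113, 117, 136, 148 and 107 CPM in WT 1 to 5, 121, 104, 126 and 85.6 in the libraries labelled Spns1 KO 1 to 4, and in FeO 1 to 4 it was 166, 110.1, 132 and 102. Neither gene separated the groups, and their log2 fold changes were -0.071 and -0.11 for Atp6v0a1 (Spns1 KO, then FeO) and -0.19 and 0.039 for Atp6v0a2. Per kilobase, Atp6v0a4 was the leading a subunit gene, with a mean share of 55.1% for WT, 60.0% for Spns1 KO and 59.0% for FeO, where Tcirg1 held 9.54%, 8.93% and 12.6%.

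Both accessory proteins, Ac45 (Atp6ap1) and the (pro)renin receptor (Atp6ap2), help to assemble and traffic the pump, and both genes rose in Spns1 KO. Atp6ap1 was 85.9, 85.4, 83.95, 87.4 and 91.3 CPM in WT 1 to 5, 137, 131, 142 and 98.4 in the libraries labelled Spns1 KO 1 to 4, and in FeO 1 to 4 it was 180.1, 99.9, 149.9 and 152. Each library of either model exceeded all WT libraries. The log2 fold change of Atp6ap1 was 0.55 in Spns1 KO (lost without any 1 of Spns1 KO 1, 2 or 3 or WT 1, 2 or 3) and 0.75 in FeO. Atp6ap2 was 56.8 to 63.3 CPM in WT, 79.8 to 129 CPM in Spns1 KO and 40.8 to 94.2 CPM in FeO, with log2 fold changes of 0.79 (SE 0.20) and 0.31 (SE 0.20). The call in Spns1 KO was lost without the library Spns1 KO 3.

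The membrane glycoproteins and small membrane proteins gave the largest change of the 40 genes in Spns1 KO. Of these 7 genes, 4 rose in Spns1 KO (57.1%, against 14.0% of all genes tested) and 4 in FeO (57.1%, against 22.4%). Once the length and GC trend was removed, 3 rose in each model, and the group is small for such a comparison. Cd63, a tetraspanin of late endosomes and lysosomes (chr10:128900989-128912822, GRCm38), was 123, 111, 86.6, 75.9 and 101 CPM in WT 1 to 5, 349, 381, 396 and 246 in the libraries labelled Spns1 KO 1 to 4, and in FeO 1 to 4 it was 186, 151, 282 and 306. Each library of both models lay above every WT library, and 3 of the 4 Spns1 KO libraries lay above every FeO library. Cd63 rose 3.45-fold in Spns1 KO (log2 fold change 1.78, SE 0.23, adjusted p = 0.000387, edgeR, Benjamini-Hochberg over all genes) and 2.32-fold in FeO (log2 fold change 1.21, SE 0.23). Its transcript shares 48.1% of its 31-base words with other genes, mainly the pseudogene Cd63-ps, so its count is uncertain to that extent.

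Lamp1 and Lamp2 encode the most abundant glycoproteins of the lysosomal membrane. Lamp1 was 265, 249.7, 218, 242 and 178 CPM in WT 1 to 5, 624, 529, 619 and 303 in the libraries labelled Spns1 KO 1 to 4, and in FeO 1 to 4 it was 343, 247, 347 and 380.4. Lamp2 was 280.3, 268, 258, 328 and 174 CPM in WT 1 to 5, 518, 474, 546 and 283 in the libraries labelled Spns1 KO 1 to 4, and in FeO 1 to 4 it was 351, 207, 385 and 288. For Lamp1, every Spns1 KO library lay above every WT library, and for Lamp2 Spns1 KO 4 lay inside the WT range. Lamp1 rose 2.25-fold in Spns1 KO (log2 fold change 1.17, SE 0.21), and its log2 fold change in FeO was 0.52 (SE 0.21, adjusted p = 0.0597, edgeR, Benjamini-Hochberg over all genes). Lamp2 rose 1.74-fold in Spns1 KO (log2 fold change 0.80, SE 0.23), a call that was lost without Spns1 KO 1, 2 or 3, and its log2 fold change in FeO was 0.24 (SE 0.24).

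**Figure D3:**
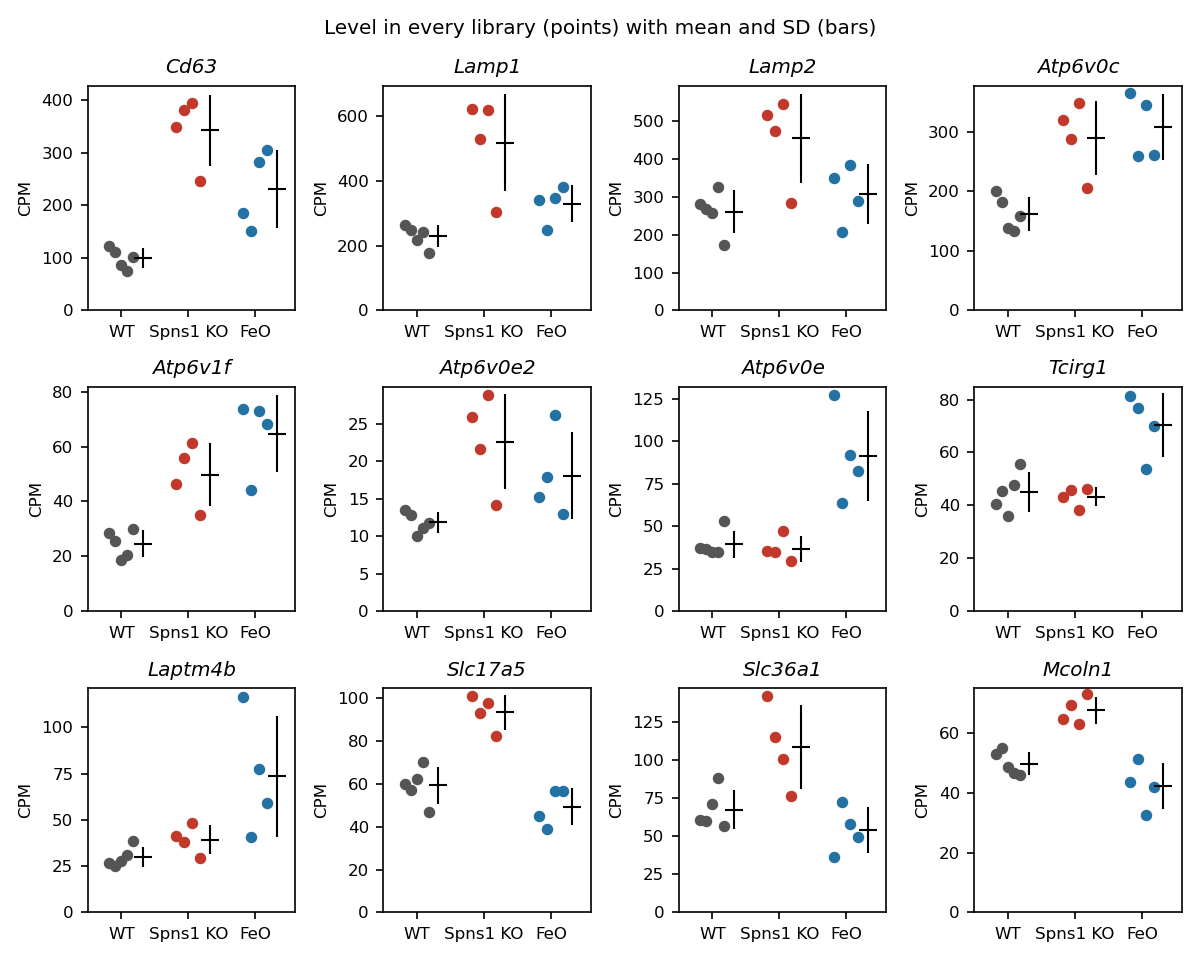
CPM (vertical axis, from 0) of 12 of the genes in each library of WT (grey), Spns1 KO (red) and FeO (blue), with the mean and SD of each group as black bars. Cd63 and Lamp1 are higher in every Spns1 KO library than in any WT library, Atp6v0e is higher in the FeO libraries alone, and Slc17a5 and Mcoln1 are higher in the Spns1 KO libraries alone.

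Laptm4a and Laptm4b are small membrane proteins with several transmembrane segments. Laptm4a was 96.1, 95.2, 93.8, 97.95 and 110.1 CPM in WT 1 to 5, 164, 166, 194 and 119 in the libraries labelled Spns1 KO 1 to 4, and in FeO 1 to 4 it was 257, 123, 223 and 220.4. Laptm4b was 26.6, 25.02, 27.6, 31.2 and 38.8 CPM in WT 1 to 5, 41.5, 38.1, 48.2 and 29.3 in the libraries labelled Spns1 KO 1 to 4, and in FeO 1 to 4 it was 117, 40.7, 77.4 and 59.03. Laptm4a was above every WT library in each library of both models, whereas Laptm4b was so in the FeO libraries, the highest of which was FeO 1. Laptm4a rose by 0.71 in Spns1 KO, lost without Spns1 KO 1, 2 or 3, and by 1.06 in FeO. Laptm4b rose by 1.30 (SE 0.25) in FeO, and its log2 fold change was 0.40 (SE 0.25) in Spns1 KO.

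Tmem192, a lysosomal membrane protein used as a tag for lysosome purification, was 11.7, 12.4, 9.20, 9.96 and 13.2 CPM in WT 1 to 5, 16.2, 14.3, 18.7 and 12.03 in the libraries labelled Spns1 KO 1 to 4, and in FeO 1 to 4 it was 23.9, 20.99, 26.1 and 16.04. Its FeO libraries were above all WT libraries, and its Spns1 KO libraries overlapped them. The log2 fold change was 0.95 (SE 0.18) in FeO and 0.44 (SE 0.18) in Spns1 KO. Scarb2 (LIMP-2), which carries glucocerebrosidase to the lysosome, was called in neither model, with log2 fold changes of -0.0092 and 0.16.

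Among the 6 channels and exchangers, 1 was higher in Spns1 KO (16.7%, against 14.0% of all genes tested) and none in FeO (against 22.4%). In FeO 0 were higher and 2 lower at an unadjusted p under 0.05 by edgeR, and 0 were higher by DESeq2 and limma-voom. A group of 6 genes is too small to set apart from the shares of all genes. Mcoln1 (TRPML1), the calcium and iron channel of the lysosome, was 53.2, 54.9, 48.5, 46.8 and 45.9 CPM in WT 1 to 5, 64.7, 69.5, 63.1 and 73.1 in the libraries labelled Spns1 KO 1 to 4, and in FeO 1 to 4 it was 43.7, 51.3, 32.7 and 42.05. Every Spns1 KO library was above every WT and every FeO library. Its log2 fold change against WT was 0.44 (SE 0.14, adjusted p = 0.0303, edgeR, Benjamini-Hochberg over all genes), short of the limit of 0.5, and -0.23 (SE 0.14) in FeO. Tpcn1, a sodium and calcium channel of endolysosomes, was 111 to 134 CPM in WT, 167 to 208 CPM in Spns1 KO and 103 to 143 CPM in FeO, and it rose by 0.56 (SE 0.14) in Spns1 KO with no library whose omission ended the call. In FeO the log2 fold change of Tpcn1 was -0.13 (SE 0.14).

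Clcn7, the chloride-proton exchanger of the lysosome, was called in neither model (-0.029 in Spns1 KO and -0.36 in FeO), nor was its partner Ostm1 (-0.075 and -0.19), nor Tpcn2, a channel related to Tpcn1 (-0.31 and -0.47). The potassium and proton channel gene Tmem175 had log2 fold changes of 0.18 and 0.22. It overlaps Dgkq on the other strand and shares 52.5% of its 31-base words with other genes, and since strand-aware counting is not stated, reads of both genes may not be told apart.

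Among the 7 transporters of metabolites, 2 rose in Spns1 KO (28.6%, against 14.0% of all genes tested) and 1 in FeO (14.3%, against 22.4%). This group too is small for such a comparison. Slc17a5 (sialin), which exports sialic acid, was 46.8 to 70.4 CPM in WT, 82.2 to 101 CPM in Spns1 KO and 39.1 to 56.7 CPM in FeO, so that the Spns1 KO libraries were above all others. It rose by 0.66 (SE 0.15) in Spns1 KO, and its log2 fold change was -0.26 (SE 0.15) in FeO. Slc36a1 (PAT1), a proton-coupled exporter of small amino acids, was 56.8 to 88.2 CPM in WT, 76.03 to 142 CPM in Spns1 KO and 36.5 to 72.2 CPM in FeO. It rose by 0.69 (SE 0.21) in Spns1 KO, a call lost without any 1 of Spns1 KO 1, 2 or 3 or WT 1, 2, 3 or 5, and its log2 fold change was -0.32 (SE 0.21) in FeO.

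Cln3, the gene mutated in juvenile Batten disease (chr7:126571207-126585817, GRCm38, on the chromosome that carries the targeted Spns1), was 9.83 to 16.1 CPM in WT, 14.8 to 20.1 CPM in Spns1 KO and 18.6 to 30.3 CPM in FeO. It rose by 0.83 (SE 0.19) in FeO, and its log2 fold change was 0.42 (SE 0.19) in Spns1 KO. Cln3 overlaps Apobr on the other strand and shares 13% of its 31-base words. The other transporter genes were called in neither model. The log2 fold change of the cystine exporter Ctns was 0.047 in Spns1 KO and -0.13 in FeO. It was -0.038 and -0.0066 for the nucleoside transporter Slc29a3, and -0.22 and -0.069 for Mfsd8 (CLN7), the least expressed of the 40 genes in WT at 2.73 CPM per kilobase (SD 0.279, n = 5). It was -0.012 and 0.23 for Abcb9, a peptide transporter. Sort1, the sorting receptor sortilin, was called in neither model either, with values of -0.44 and 0.58.

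**Figure D4:**
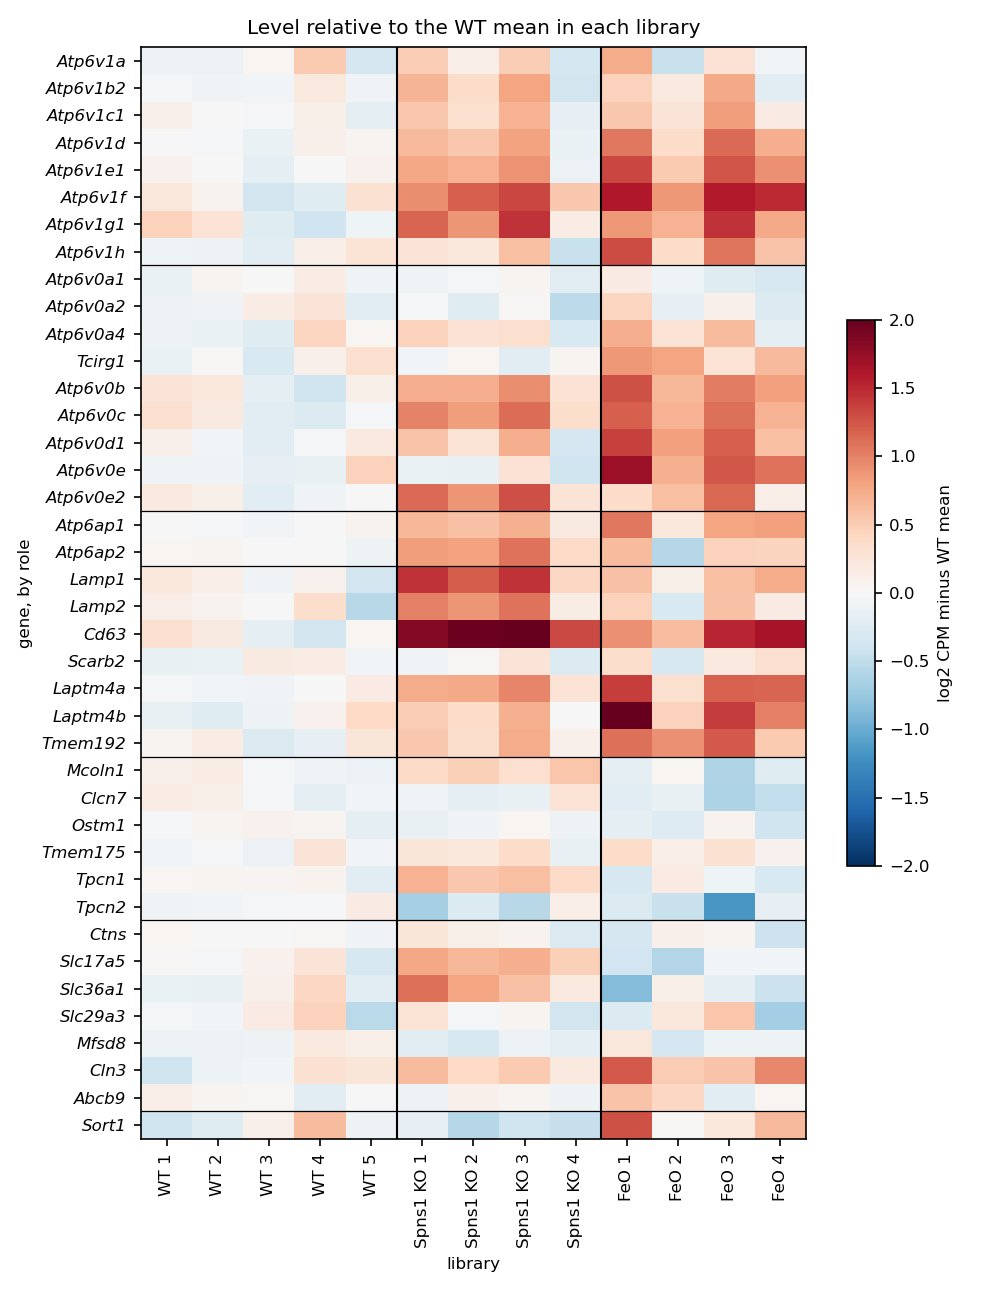
Log2 CPM of the 40 genes (rows, by role) in each of the 13 libraries (columns) after subtraction of the WT mean (colour scale from -2 in blue to 2 in red, with values beyond it drawn at its ends). Cd63 has the deepest red of the Spns1 KO columns, and Spns1 KO 4 is lower than Spns1 KO 1 to 3 in most rows.

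The libraries of Spns1 KO differed among themselves. The count of 15 genes higher fell to 7 without Spns1 KO 3 and rose to 20 without Spns1 KO 4. Over all genes tested, the count called higher moved the same way. It went from 2307 to 1531 without Spns1 KO 3 and to 3003 without Spns1 KO 4. Leaving out FeO 1, the library with the divergent marker sums, left the 17 genes higher in FeO at 17, and all 17 were the same genes. Of the 40 genes, 12 were higher in every Spns1 KO library than in every WT library (13.1% of all genes tested were), 1 was lower in every one (9.38%), 16 were higher in every FeO library (16.9%) and 1 was lower (16.4%).

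Marker genes of cell types moved with both comparisons. In Spns1 KO 9 of 13 proximal tubule markers, 5 of 13 macrophage markers and 3 of 13 intercalated cell markers were called higher, and 3 intercalated cell markers were lower. Of 7 principal cell markers 1 was higher and 1 lower. Of all genes tested, 14.0% were called higher and 7.55% lower in Spns1 KO. In FeO 9 macrophage, 5 intercalated cell and 5 of 7 principal cell markers were higher, and 1 proximal tubule marker was higher and 1 lower. There, 22.4% of all genes tested were higher and 19.7% lower. The intercalated cell list itself holds the V-ATPase genes Atp6v1b1, Atp6v1g3 and Atp6v0d2, which are not among the 40. Of these, Atp6v1g3 (1.13) and Atp6v0d2 (0.73) were among the markers higher in FeO, and Atp6v1g3 (1.01) was among those higher in Spns1 KO. The summed macrophage level was 104 to 152 CPM in Spns1 KO, 68.3 to 86.1 CPM in WT and 115 to 219 CPM in FeO. The part of these cell types in the changes of the V-ATPase and lysosomal membrane genes was not tested.

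Transcript length moved with the changes. The 11 genes with a transcript under 2000 bases include 8 that rose in Spns1 KO and 11 that rose in FeO, whereas 7 and 6 of the 29 longer genes did. The share of all genes of either length that rose is not given here. Across the 40 genes, which are not independent replicates, Spearman's rho of transcript length with the log2 fold change came to -0.563 for Spns1 KO against WT and -0.684 for FeO. With length and GC trends taken out of every library, 9 genes rose in Spns1 KO and 13 in FeO, and rho was -0.167 and -0.27. Of all 16468 genes tested, 1790 rose in Spns1 KO and 3480 in FeO in that setting. Of the 11 shorter genes, 2 were then called in Spns1 KO and 6 in FeO. Of the 9 genes called in both models, Cd63 alone kept both calls (1.40 in Spns1 KO and 0.74 in FeO). The ring genes Atp6v0b and Atp6v0c, and Atp6v1g1, were called in neither model. Atp6v1f, Atp6v1e1, Atp6ap1 and Laptm4a lost the call in Spns1 KO, and Atp6v0e2 lost that in FeO, as did Tmem192. The other calls in Spns1 KO alone remained, with Lamp1 at 1.06 and Lamp2 at 1.09, and so did those in FeO alone other than Tmem192, with Atp6v0e at 1.22, Laptm4b at 1.07 and Atp6v1d at 1.05. Atp6v1d was also called in Spns1 KO (0.68) and Sort1 in FeO (1.09). The part of length in the changes was not tested further.

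**Figure D5:**
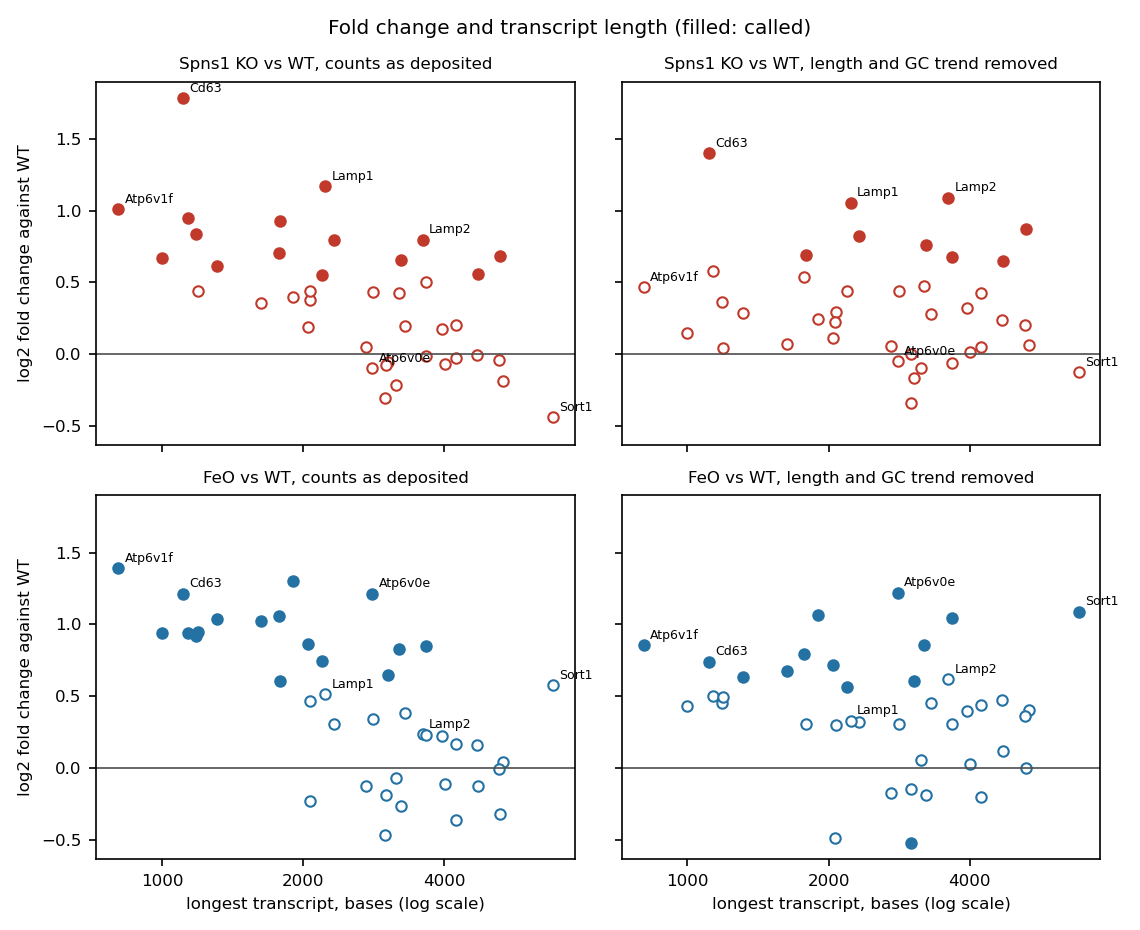
Log2 fold change against WT (vertical axis) by length of the longest transcript (horizontal axis, bases, log scale) for the 40 genes in Spns1 KO (top) and FeO (bottom), with counts as deposited (left) and with the length and GC trend removed (right). Filled points were called: 15 in red and 17 in blue on the left, and on the right 9 in red and 14 in blue, of which 13 rose and 1 fell.

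To ask where the models differ, the libraries labelled Spns1 KO were compared with FeO directly. Of the 40 genes, 4 were higher in Spns1 KO (6.76% of all genes tested) and 4 were lower (8.10%). The higher genes were Slc36a1 (log2 fold change 1.00, SE 0.23), Slc17a5 (0.92, SE 0.16), Tpcn1 (0.68, SE 0.15) and Mcoln1 (0.67, SE 0.14), all transporters or channels. Each was higher in every Spns1 KO library than in every FeO library, as were 8.25% of all genes tested, and no other of the 40 was. The lower genes were Atp6v0e (-1.31, SE 0.22), Sort1 (-1.02, SE 0.26), Laptm4b (-0.90, SE 0.26) and Tcirg1 (-0.70, SE 0.16). Atp6v0e, Tcirg1 and Sort1 were lower in every Spns1 KO library, as were 9.10% of all genes tested. The call of Laptm4b was lost without any 1 of Spns1 KO 1, 2 or 4 or FeO 1 or 3, and that of Sort1 without Spns1 KO 2 or FeO 1. Without FeO 1, or without Spns1 KO 2, the lower genes therefore numbered 2, and without FeO 2 or FeO 4 they numbered 7. Over all genes tested, those called lower numbered 636, 764, 1630 and 1588 in these fits, in that order, and 1334 with every library. Lamp1 (0.66, SE 0.23, adjusted p = 0.0614) and Cd63 (0.57, SE 0.24, adjusted p = 0.111) did not pass the test of edgeR with Benjamini-Hochberg adjusted values over all genes. Both were added here after their values were seen. With the length and GC trend removed, Lamp1 (0.73, adjusted p = 0.0368, edgeR) and Cd63 (0.66, adjusted p = 0.0236, edgeR) were called higher in Spns1 KO. In that setting 6 of the 40 genes were higher and 4 lower, against 1008 and 1625 of all 16468 genes tested.

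The genes with and without the promoter element shown above were set side by side. Of the 9 with TCACGTG, 3 rose in Spns1 KO and 4 in FeO, with median log2 fold changes of 0.42 and 0.52. Of the 23 whose window lacked it, 10 rose in each model, with medians of 0.44 and 0.31. Of all genes tested, 14.0% were called higher in Spns1 KO and 22.4% in FeO. The share among all genes with the element is not given here. The genes with the element that rose in Spns1 KO were Atp6v0b, Lamp1 and Slc36a1, and those that rose in FeO were Atp6v0b, Atp6v0d1, Atp6v0e and Cln3. Atp6v1a, Mcoln1 and Clcn7 were called in neither model.

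Of 50 further V-ATPase and lysosomal membrane genes, 48 were tested, of which 8 rose (16.7%, against 14.0% of all genes tested) and 2 fell (4.17%, against 7.55%) in Spns1 KO, and 12 rose (25%, against 22.4%) and 6 fell (12.5%, against 19.7%) in FeO, so that the shares of higher genes were near those of all genes. Those called higher in both were Rnasek, a V-ATPase-associated protein (1.23 and 1.62), the G subunit genes Atp6v1g2 (1.18 and 0.75) and Atp6v1g3 (1.01 and 1.13), the lysosomal glycoprotein gene Glmp (0.80 and 0.67) and Laptm5 of blood cells (0.77 and 1.13). Rnasek shares 97.9% of its 31-base words with other genes, mainly Gm21988, which overlaps it on the same strand, so that its count cannot be told apart from that of Gm21988. The call of Atp6v1g2 in FeO was lost when any 1 of 7 libraries was left out and with the length and GC trend removed (0.38), and that of Atp6v1g3 in Spns1 KO when any 1 of 7 was left out. Glmp overlaps Tmem79 on the other strand and shares 32.8% of its 31-base words. Atp6v1g3 is also an intercalated cell marker and Laptm5 a macrophage marker in the lists above. Litaf, which acts in endosomal sorting, fell in Spns1 KO (-0.77, SE 0.18) and rose in FeO (1.00, SE 0.17), and differed between the models directly (-1.77, SE 0.19). Mfsd1, the lysosomal dipeptide transporter that binds Glmp, rose in Spns1 KO (1.08, SE 0.19), and its value in FeO was 0.26. The rabconnectin genes Dmxl2 (-1.30) and Dmxl1 (-1.26), which help V1 to join V0, fell in FeO. So did Igf2r (-0.87), which encodes a mannose 6-phosphate receptor and not the only one, since M6pr is also on this list. With the length and GC trend removed, Dmxl2 was called lower at -0.53, and Dmxl1 (-0.19) and Igf2r (-0.24) were not called.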

How the data were processed

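The deposited table holds estimated counts per gene symbol for 13 libraries of thiol-tagged kidney RNA, not normalized, and its values were whole numbers. It is named for kallisto, and the submitters' processing notes list kallisto 0.44.0, bcl2fastq 2.19, DESeq2 and GRCm38, whereas the methods describe STAR and HTSeq. Which of these produced the counts is not given in the sources used here. Groups follow the GEO labels. Genes were filtered with filterByExpr and scaled by TMM, and a single fit of all 13 libraries was tested with edgeR 4.0.16's quasi-likelihood test (R 4.3.3, Benjamini-Hochberg adjustment over 16468 genes), because the study compared all samples together. A call needed an adjusted p under 0.05 and a log2 fold change beyond 0.5, the study's limits. Alternatives were DESeq2 1.42.0, limma-voom (limma 3.58.1), RLE, upper-quartile and library-total scaling, no filter, a length and GC trend removed (mgcv 1.9.3), the replicate number as a block, the compared groups alone, and each library left out in turn. The code was tested on simulated counts. Lengths, positions and shared 31-base words come from GENCODE M21 (GRCm38), and promoter windows from RefSeq (GRCm38.p6). Members and lists were chosen with earlier results of these data known. All 40 members are named, values per library are given for those called in both models, for the 6 largest called in 1 model, and for Atp6v0a1, Atp6v0a2, Atp6v0a4, Tcirg1, Lamp1, Lamp2 and Mcoln1, and further pathway genes are named if called in both models or among the 4 largest called in 1.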

Additional observations from a re-analysis of the deposited data

Results flagged for a closer look

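Of 120 groups of 4 or 5 libraries examined among the 40 genes, 7 held a library far from the others, where chance flags about 1 in 20. All 7 were WT libraries. WT 5, the library with the lowest total count, was the highest of its group for Atp6v0e (53.2 CPM, next 37.0), Laptm4a (110.1 CPM, next 98.0) and Tpcn2 (16.1 CPM, next 14.1), and the lowest for Tpcn1 (110.6 CPM, next 132) and Ctns (59.1 CPM, next 62.4). WT 4 was the highest for Atp6v1b2 (293 CPM, next 250.4) and Tmem175 (26.5 CPM, next 21.8). The cause was not tested.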

How the results depend on the processing

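DESeq2, RLE, upper-quartile scaling and the unfiltered table kept all 15 genes called higher in Spns1 KO, limma-voom kept 14 and library totals 10; of the 17 in FeO they kept 17, 17, 17, 17, 16 and 16. Library totals moved the median of all genes in Spns1 KO from -0.045 to -0.18, and the calls over all genes from 2307 higher and 1243 lower to 1739 and 2086. Removing the length and GC trend moved the median of all genes in FeO from -0.011 to 0.089, left 9 genes higher in Spns1 KO, called 1 lower in FeO (Tpcn2), and left 2 further pathway genes lower in FeO. Library totals left 5 further pathway genes higher in Spns1 KO and 7 in FeO.

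Replicate numbers did not pair the libraries (same-number correlations -0.296 to 0.256). With the replicate block, 11 genes were higher in Spns1 KO and 16 in FeO, and over all genes tested 1931 and 3325 were. The log2 fold changes of Tcirg1 (0.037) and Atp6v0e (0.017) in Spns1 KO turned positive, and that of Atp6v0a2 in FeO turned negative (-0.038).

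Leaving out each library in turn gave 7 to 20 genes higher in Spns1 KO and 16 to 21 in FeO. Over all genes tested, 1531 to 3003 and 3294 to 4042 were then called higher. In Spns1 KO against FeO, 4 to 5 genes were higher and 2 to 7 lower. Over all genes tested, 545 to 1457 were higher and 636 to 1630 lower. Further pathway genes numbered 5 to 10 higher in Spns1 KO (5 without Spns1 KO 3 or WT 3). In FeO they numbered 7 to 15 higher (7 without WT 3) and 3 to 7 lower (3 without WT 4).

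Uncalled log2 fold changes near 0 turned sign. In Spns1 KO with the trend removed these were Atp6v0a1 0.013, Atp6v0a2 0.061, Scarb2 0.24, Clcn7 0.048, Ostm1 0.0039, Slc29a3 0.21, Dmxl2 0.13 and Dmxl1 0.056; without the filter Tcirg1 0.0074, Scarb2 0.053, Clcn7 0.030, Slc29a3 0.025 and Abcb9 0.048; with those groups alone Scarb2 0.0098 and Abcb9 0.0078; with library totals Ctns -0.082. In FeO they were, with the trend removed, Atp6v0a1 0.029, Tpcn1 0.12, Slc29a3 0.36 and Mfsd8 0.058; without the filter Slc29a3 0.061 and Mfsd8 0.0016; with library totals Atp6v0a2 -0.019; with DESeq2 Slc29a3 0.0089 and with RLE 0.0089. With a library left out, the ranges in Spns1 KO were Tcirg1 -0.11 to 0.056, Atp6v0e -0.24 to 0.054, Scarb2 -0.11 to 0.070, Clcn7 -0.14 to 0.022, Ctns -0.022 to 0.15, Slc29a3 -0.14 to 0.11 and Abcb9 -0.048 to 0.019, and in FeO Atp6v1a -0.055 to 0.35, Atp6v0a2 -0.095 to 0.16, Slc29a3 -0.24 to 0.20 and Mfsd8 -0.16 to 0.029. The causes were not tested. Depth limits genes with few reads, such as Mfsd8, with 202 to 490 counts per library.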
